A study of Mus musculus with 12 samples.

Results

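Memory precursor effector cells (MPEC) and short-lived effector cells (SLEC) of the Rroid2 knockout (KO) genotype were compared on day 14 of an infection. The comparison rests on 4 of the 12 RNA-seq libraries of the series, 2 KO MPEC and 2 KO SLEC libraries, chosen by their labels, and covers the 14460 of 55421 genes in the count table that passed a filter on low counts. All libraries were made from OT-I cells, which are CD8 T cells with a transgenic receptor for a peptide of ovalbumin. The cells had been transferred into host mice, the hosts were infected with *Listeria monocytogenes* expressing ovalbumin (LM-OVA), and the transferred cells were sorted from the spleen. The KO cells are labelled Rroid2 KO, and the wild-type (WT) cells used for comparison are labelled Rroid2 WT and had the same transfer, infection, tissue and days. Not given in the sources used here are the allele that was made, the sort gates, the ages of the mice, the number of mice behind a library and whether the 2 libraries of a group came from separate animals. The p-values therefore measure only the spread between these libraries. No feature of the count table is named Rroid2, so the loss of the locus was not checked here.

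SLEC and MPEC are 2 fates of a CD8 T cell that has met its antigen. SLEC carry the inhibitory lectin KLRG1, kill well, circulate in the blood and mostly die after the infection is cleared. MPEC keep the receptor for interleukin 7 (IL-7), a survival signal, and give rise to memory cells. The transcription factors T-bet, Blimp-1 and ZEB2 favour the effector fate, while TCF-1, FOXO1, ID3 and EOMES are tied to memory.

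The 4 libraries held between 7603551 and 10950082 counts, and the 12 libraries of the series between 7603551 and 14026594. *Cd8a* had 7027 to 8984 counts and *Cd4* 0 to 5 counts in each of the 4, which matches the labelled cell type. Mitochondrial ribosomal RNA took 10.2% and 9.56% of the counts in KO SLEC and 10.97% and 13.8% in KO MPEC. Summed over 17 B cell markers, the level was 26.8 to 74.99 CPM (counts scaled to the size of the library) in KO SLEC and 130 to 137 CPM in KO MPEC, and none of the 17 passed the test. The largest B cell contribution, *Ighm*, had 38.9 and 15.7 CPM in KO SLEC and 94.0 and 112 CPM in KO MPEC. The 12 markers of monocytes and macrophages summed to 12.6 to 18.3 CPM and 20.8 to 20.9 CPM, with *Cd14* and *Fcgr1* at 0 in all 4 libraries. The 6 markers of natural killer (NK) cells summed to 116 to 245 CPM in KO SLEC, where 5 of the 6 were detected in each library, and to 133 to 188 CPM in KO MPEC, where 3 were. *Ncr1*, which defines NK cells, was at 0 in all 4 libraries, and most of the sum came from *Eomes* and *Klrb1c*, which are also in lists described below. The part of these other cells in the results below was not tested.

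In KO cells, 775 genes (5.36% of those tested) differed between MPEC and SLEC at an adjusted p under 0.05 in edgeR's quasi-likelihood test, and these are the genes described as called below. Of these, 418 (2.89%) were higher and 357 (2.47%) lower in MPEC. Changes of at least 1 on the log2 scale were found in 275 of the higher and 215 of the lower genes, and changes of at least 3 in 51 and 71. In all 775, both libraries of 1 population lay above both of the other, which was so in 46.7% of all tested genes. Leaving out 1 library at a time lowered the count to 552 without SLEC replicate 1, 281 without SLEC replicate 2, 367 without MPEC replicate 1 and 390 without MPEC replicate 2. The called genes were 93.1% (higher) and 93.8% (lower) protein-coding, against 78.0% of all genes tested. Their median exon length was 4274.5 and 5281 bases, against 3747 over all tested genes.

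**Figure D1:**
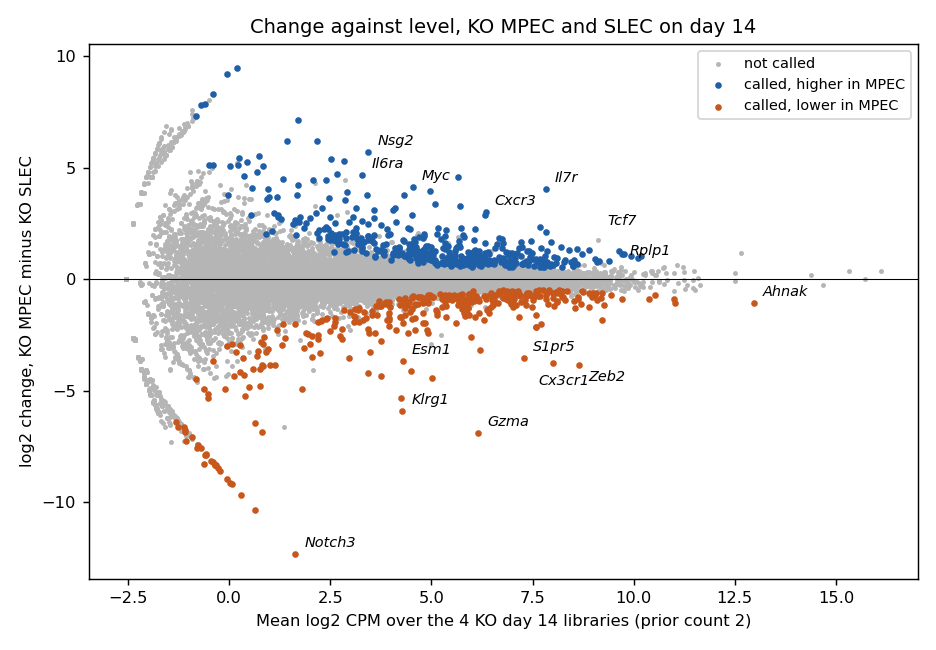
Each point is 1 of the 14460 genes tested, by its mean log2 CPM over the 4 KO day 14 libraries (x axis) and its log2 change, KO MPEC minus KO SLEC (y axis); coloured points are called, 418 higher and 357 lower. Genes with 0 counts in a population form the curved edges at low levels, where the fitted change depends on the prior count, and *Il7r*, *Gzma* and *Zeb2* combine a large change with a high level.

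The genes for the surface proteins by which SLEC and MPEC are conventionally separated differed by large amounts. *Klrg1* (chromosome 6, 122270596 to 122282882, minus strand, GRCm38) had 154 and 157 CPM in KO SLEC and 1.33 and 3.74 CPM in KO MPEC. Its log2 change, MPEC minus SLEC, was -5.92 ± 0.33 (SE; adjusted p = 4.21e-07). *Il7r*, the IL-7 receptor alpha chain (chromosome 15, 9505788 to 9530176, minus strand), had 71.7 and 42.7 CPM in KO SLEC and 833 and 1037 CPM in KO MPEC, a change of 4.02 ± 0.25 (adjusted p = 4.21e-07). Each gene thus separated the populations by far more than its replicates differed. If the sort used these proteins, which the sources used here do not say, the 2 genes restate the gates.

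The effector transcription factors that differed were all lower in MPEC. Of 15 tested, 5 were called lower and 0 higher, with a list median of -0.10 against -0.0025 over all genes. Counts called in this list and the lists below stand beside 2.89% of all tested genes called higher and 2.47% called lower. *Zeb2* was at 1542 and 1495 CPM in KO SLEC and at 114 and 97.8 CPM in KO MPEC, a change of -3.85 ± 0.25 (adjusted p = 4.46e-07). *Prdm1*, which encodes Blimp-1, had 92.3 and 101 CPM against 28.1 and 21.5 CPM (-1.96 ± 0.18). *Rora*, an orphan nuclear receptor gene, had 286 and 383 CPM against 103 and 117 CPM (-1.60 ± 0.18). For these 3 the populations stood well apart and the call held with any 1 library left out. *Bhlhe40*, a stress-responsive repressor, had 316 and 543 CPM against 58.2 and 135 CPM (-2.15 ± 0.40), and its adjusted p was 0.067 without SLEC replicate 2 and 0.27 with only the compared groups in the fit. *Tbx21*, which encodes T-bet, differed less, with 394 and 484 CPM in KO SLEC and 194 and 266 CPM in KO MPEC (-0.93 ± 0.18, adjusted p = 0.0041). Its adjusted p was 0.084 without SLEC replicate 2 and 0.094 without MPEC replicate 1. *Id2*, which supports effector survival, did not pass the test, with 335 and 223 CPM against 320 and 334 CPM (0.23 ± 0.18, adjusted p = 0.57).

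Memory-associated transcription factors were mixed. Of 20 tested, 4 were called higher (*Id3*, *Myb*, *Zeb1* and *Foxo1*) and 2 lower (*Klf2* and *Klf3*), and the list median was 0.15. *Id3*, an inhibitor of E proteins, had 0 and 0.412 CPM in KO SLEC and 10.1 and 7.57 CPM in KO MPEC, that is 3 counts against 177 in sum. *Myb*, a factor of progenitor and stem-like T cells, had 0.607 and 1.92 CPM in KO SLEC and 38.3 and 25.1 CPM in KO MPEC (4.71 ± 0.94, adjusted p = 0.028). Without one library at a time, the adjusted p of *Myb* ran from 0.066 to 0.15, and that of *Id3* was 0.090 without SLEC replicate 1 and 0.056 without MPEC replicate 1. *Myb* also had an adjusted p of 0.051 with no filter on low counts and 0.057 with both WT SLEC day 14 libraries out of the fit. Their SLEC levels were close to 0 and their MPEC levels were not, but with 1 library fewer the fit no longer called *Myb*.

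*Zeb1*, the paralog of *Zeb2*, ran the other way from it, with 60.8 and 65.4 CPM in KO SLEC and 117 and 115 CPM in KO MPEC (0.88 ± 0.17, adjusted p = 0.0049, 0.056 without SLEC replicate 1). *Foxo1*, which drives *Il7r* in T cells, had 114 and 128 CPM against 189 and 200 CPM (0.68 ± 0.15), with an adjusted p of 0.054 to 0.11 when any 1 library was left out. *Klf2*, a factor of cell exit from tissues, was lower in MPEC, with 780 and 803 CPM against 416 and 465 CPM (-0.85 ± 0.16, adjusted p = 0.0040, 0.070 without MPEC replicate 1). *Klf3* showed the same direction, with 672 and 818 CPM against 509 and 446 CPM (-0.64 ± 0.18, adjusted p = 0.047, 0.059 to 0.37 without 1 library, and 0.061 without both WT SLEC day 14 libraries).

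Several textbook memory factors did not pass the test. *Tcf7*, which encodes TCF-1, had 446 and 183 CPM in KO SLEC and 1015 and 1142 CPM in KO MPEC, so both MPEC libraries were above both SLEC libraries. The change of 1.78 ± 0.69 had an adjusted p of 0.25. *Lef1*, its close relative, had 294 and 695 CPM in KO SLEC and 301 and 320 CPM in KO MPEC, and *Eomes* had 133 and 33.0 CPM against 178 and 123 CPM. For both of these the populations overlapped, with SLEC replicate 1 and 2 further apart than the MPEC pair.

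Of 18 tested genes for killing, 6 were called lower in MPEC and 1 higher, with a median of -0.19. *Gzma* (granzyme A; chromosome 13, 113093825 to 113100981, minus strand) had 806 and 775 CPM in KO SLEC and 4.52 and 8.72 CPM in KO MPEC. At -6.89 ± 0.39 (adjusted p = 1.48e-06) it led the falls among genes whose mean log2 CPM was 3 or higher. *Gzmb*, granzyme B, had 411 and 467 CPM against 70.3 and 144 CPM (-2.03 ± 0.34, adjusted p = 0.0078, 0.061 without SLEC replicate 2). The granzymes thus differed in size of change, and *Gzmk*, granzyme K, had 40.5 and 31.1 CPM in KO SLEC and 47.4 and 36.9 CPM in KO MPEC, overlapping (0.23 ± 0.18, adjusted p = 0.57). *Fasl*, the death ligand, had 59.0 and 65.3 CPM against 24.5 and 28.7 CPM (-1.22 ± 0.20) and stayed called without any 1 library. *Prf1*, perforin, had 385 and 409 CPM against 154 and 243 CPM (-1.0 ± 0.18), with an adjusted p of 0.055 without MPEC replicate 1. The remaining lower genes were *Stx11* (-0.99), which acts in granule release, and *Serpinb9* (-0.67), an inhibitor of granzyme B. *Ctsw*, the protease cathepsin W, was the exception, with 196 and 164 CPM in KO SLEC and 245 and 275 CPM in KO MPEC (0.53 ± 0.14, adjusted p = 0.034). These 3 lost the call without 1 library in 3, 4 and 3 of the 4 omissions, with adjusted p up to 0.13, 0.21 and 0.33, and *Ctsw* also without both WT SLEC day 14 libraries (0.059).

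Other called genes near *Gzma* on chromosome 13 were also lower in MPEC, while *Gzmk* was not called. In genomic order, the called genes *Cdc20b*, *Gpx8* and *Gzma* span 113035111 to 113100981 with no other tested gene between them. *Gzmk* follows on the minus strand (113171608 to 113225908), and *Esm1* lies within the interval annotated for it, on the plus strand (113209659 to 113218098). *Cdc20b* had 8.09 and 9.34 CPM in KO SLEC and 0 counts in both KO MPEC libraries, at least 59.4-fold lower when 3 counts over the 2 libraries are taken as the floor. *Gpx8* had 1.62 and 2.47 CPM and again 0 counts in KO MPEC, at least 13.7-fold lower. *Esm1*, a secreted proteoglycan, had 67.4 and 71.5 CPM against 4.52 and 6.42 CPM (-3.66 ± 0.19, adjusted p = 3.65e-09). *Gpx8* (113042753 to 113046410, minus strand) likewise lies within the interval annotated for *Cdc20b* (113035111 to 113091195, plus strand). Whether strand was used in the counting is not stated. Reads of *Gzmk* and *Esm1*, and reads of *Cdc20b* and *Gpx8*, may therefore not be told apart where the genes overlap. *Cdc20b*, *Gpx8* and *Gzmk* were singled out after their values were seen.

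The promoters of the 2 most abundant called genes of this stretch are shown because the genes differ together and because ZEB2 and E proteins recognise the letters CACCTG, read as CAGGTG on the other strand and printed in capitals. Each sequence is the 250 bases before the RefSeq start of transcription, from the table of assembly GRCm38.p6, read 5′ to 3′ along the gene. The *Gzma* promoter is chr13:113100982-113101231 on the minus strand and the *Esm1* promoter chr13:113209409-113209658 on the plus strand.
Gzma: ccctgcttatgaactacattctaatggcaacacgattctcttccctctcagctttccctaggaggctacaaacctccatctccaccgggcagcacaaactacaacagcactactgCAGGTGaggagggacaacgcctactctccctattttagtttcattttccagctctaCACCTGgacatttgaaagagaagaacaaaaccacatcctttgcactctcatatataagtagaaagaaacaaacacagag
Esm1: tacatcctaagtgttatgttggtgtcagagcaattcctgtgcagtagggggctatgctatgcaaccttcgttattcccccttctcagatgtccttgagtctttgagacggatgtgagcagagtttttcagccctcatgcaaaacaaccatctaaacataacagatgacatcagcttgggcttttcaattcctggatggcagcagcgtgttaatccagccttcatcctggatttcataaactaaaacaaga
The *Gzma* sequence holds 2 matches, at -135 and -79 from the start, and the *Esm1* sequence 0. Over 300 bases (250 before to 50 after the start), CACCTG or CAGGTG was found in 16.1% of 366 promoters of genes lower in MPEC, 21.1% of 399 promoters of genes higher in MPEC and 17.7% of 12106 promoters of all genes tested. The T-box core TCACACC, or its reverse complement GGTGTGA, was found in 3.83%, 4.01% and 3.40% of the same sets. The TCF and LEF core CTTTGAT, or its reverse complement ATCAAAG, was found in 1.09%, 2.51% and 2.62%. The last 4 letters of the T-box core are the first 4 of CACCTG, so 1 stretch can match both. In the table, 266 of the 357 lower and 317 of the 418 higher genes had a promoter. A match describes letters only.

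The killer lectin-like receptors that differed, which tune killing in NK cells and effector T cells, were lower in MPEC. Of 16 tested receptors in the list, 6 were called lower and 0 higher, and the list median was -2.68. *Klrc1*, which encodes NKG2A, had 403 and 392 CPM in KO SLEC and 167 and 222 CPM in KO MPEC (-1.04 ± 0.21, adjusted p = 0.0073). Leaving out SLEC replicate 2 or MPEC replicate 1 gave *Klrc1* an adjusted p of 0.061 or 0.11. *Klre1* had 57.1 and 34.2 CPM against 3.18 and 1.82 CPM (-4.20 ± 0.86, adjusted p = 0.042, 0.11 to 0.21 without 1 library, and 0.091 with no filter on low counts). *Klra9* had 16.3 and 11.8 CPM in KO SLEC and 0 counts in KO MPEC, at least 99.2-fold lower. *Klrk1*, which encodes the activating receptor NKG2D, showed overlapping populations at 351 and 243 CPM against 266 and 278 CPM. *Klrd1*, the CD94 partner of NKG2A, had 86.7 and 65.7 CPM against 77.9 and 65.7 CPM.

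Most of the Klr genes lie on 1 stretch of chromosome 6 (128778485 to 130337574), and *Klrg1* lies apart from it, at 122270596 to 122282882. All 18 tested members had a negative change, while 7112 of all 14460 tested genes had a positive one. Some of these changes were within their SE of 0, as for *Klrd1* (-0.09 ± 0.19) and *Klrk1* (-0.13 ± 0.17). Others rested on very few reads, as for *Klra7*, with 0.101 and 0 CPM in KO SLEC and 0 in KO MPEC. Of the 18, 8 were called lower, *Klrg1* among them, against 2.47% of all genes called lower. The Klra genes among them are near-identical copies. How the authors' counting divided reads between such copies is not stated in the labels, so their single values are uncertain. *Tyrobp*, the signalling adaptor of several of these receptors and a marker of NK and myeloid cells, had 36 counts in KO SLEC and 1 in KO MPEC in sum and was called lower (adjusted p = 0.021, 0.056 to 0.14 without 1 library, and 0.11 without both WT SLEC day 14 libraries). *Klrb1c*, the NK1.1 gene, had 98.5 and 82.6 CPM against 7.49 and 16.7 CPM and did not pass (adjusted p = 0.16).

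Homing receptors changed in both directions. Of 24 tested, 5 were called lower (*Cx3cr1*, *S1pr5*, *Itgam*, *Itgb2*, *Itgal*) and 3 higher in MPEC, among them *Cxcr3* and *Ccr7*. *Cx3cr1*, the fractalkine receptor of circulating effector cells, had 951 and 946 CPM in KO SLEC and 60.2 and 80.0 CPM in KO MPEC (-3.76 ± 0.21, adjusted p = 3.65e-09). *S1pr5*, a sphingosine-1-phosphate receptor, had 547 and 519 CPM against 50.8 and 40.4 CPM (-3.55 ± 0.25). In both genes the replicates were close, and the call held without any 1 library. *Itgam*, the alpha chain of Mac-1, was at 25.9 and 26.9 CPM in SLEC and 3.18 and 1.44 CPM in MPEC (-3.52 ± 0.29), and its beta chain *Itgb2* at 1700 and 1896 CPM in SLEC and 881 and 1072 CPM in MPEC (-0.88 ± 0.17). *Itgal*, the alpha chain of LFA-1, showed -0.70 ± 0.17. Without SLEC replicate 2 or MPEC replicate 1, *Itgb2* had an adjusted p of 0.057 or 0.073 and *Itgal* of 0.21 or 0.18.

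Among the higher receptors, *Cxcr3*, a receptor for interferon-induced chemokines, had 32.8 and 24.7 CPM in KO SLEC and 209 and 252 CPM in KO MPEC (3.0 ± 0.38, adjusted p = 0.0018). *Ccr7*, which guides cells into the T cell zone, had 2.23 and 0 CPM against 28.4 and 25.5 CPM (4.47 ± 0.86, adjusted p = 0.013). Both MPEC libraries were above both SLEC libraries in each gene. Without MPEC replicate 1 or MPEC replicate 2 the adjusted p of *Ccr7* was 0.067 or 0.058, while *Cxcr3* stayed called. *Gpr183*, an oxysterol receptor that positions lymphocytes, was among the 15 largest rises, with 12.5 and 4.26 CPM against 123 and 142 CPM (3.95 ± 0.40). *S1pr1*, the main receptor for exit from lymph nodes, did not pass, with a change of -0.28.

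Cytokine receptors changed in both directions. Of 23 tested, 5 were called higher (*Il6ra*, *Il7r*, *Il6st*, *Il4ra*, *Il2rb*) and 2 lower (*Il18rap*, *Il12rb2*) in MPEC. *Il6ra*, the IL-6 receptor alpha chain, had 3.64 and 0.550 CPM in KO SLEC and 56.6 and 58.2 CPM in KO MPEC (4.68 ± 0.54, adjusted p = 2.88e-04). Its signalling partner *Il6st*, which encodes gp130, was at 41.7 and 40.5 CPM against 95.4 and 91.6 CPM (1.18 ± 0.18), so both chains of the IL-6 receptor were higher. *Il18rap*, a chain of the IL-18 receptor, was at 1051 and 1177 CPM in SLEC and 328 and 305 CPM in MPEC (-1.82 ± 0.21), whereas its partner *Il18r1* had a change of 0.08 and did not pass. *Il12rb2*, the signalling chain of the IL-12 receptor, had 87.8 and 116 CPM against 27.5 and 36.3 CPM (-1.67 ± 0.23), and its partner *Il12rb1* had a change of 0.57 and did not pass. In each of these receptors for inflammatory cytokines, 1 chain was called lower and the other was not called. *Il2rb*, shared by the IL-2 and IL-15 receptors, had 422 and 356 CPM against 673 and 766 CPM (0.89 ± 0.20, adjusted p = 0.016). The calls of *Il2rb* and *Il4ra* (0.97 ± 0.19) were lost without SLEC replicate 2 (adjusted p = 0.21 and 0.093) or MPEC replicate 2 (0.13 and 0.058), and that of *Il2rb* also without MPEC replicate 1 (0.058).

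The promoters of *Il6ra* and *Nsg2*, 2 of the largest rises, are shown as the counterpart of the *Gzma* and *Esm1* promoters, from the same table and with CACCTG or CAGGTG in capitals. They are chr3:89913197-89913446 on the minus strand and chr11:32000169-32000418 on the plus strand.
Il6ra: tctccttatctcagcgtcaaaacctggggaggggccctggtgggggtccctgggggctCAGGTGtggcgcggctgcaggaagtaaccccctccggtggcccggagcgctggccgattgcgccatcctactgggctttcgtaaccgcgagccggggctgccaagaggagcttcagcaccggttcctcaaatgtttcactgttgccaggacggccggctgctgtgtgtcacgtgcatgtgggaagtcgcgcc
Nsg2: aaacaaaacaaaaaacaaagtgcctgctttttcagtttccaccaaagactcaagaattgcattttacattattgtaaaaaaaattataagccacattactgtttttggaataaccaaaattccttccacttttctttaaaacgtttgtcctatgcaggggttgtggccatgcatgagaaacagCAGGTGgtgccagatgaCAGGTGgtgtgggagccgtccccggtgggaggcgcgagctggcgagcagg
The *Il6ra* sequence holds 1 match, at -192 from the start, and the *Nsg2* sequence 2, at -67 and -50. The table holds a second *Nsg2* promoter, chr11:32000450-32000699, which has 0 matches, and the upstream one is printed. Both printed sequences are thus ones with a match, and they do not stand for the other large rises. Of those with a promoter in the table, *Hook1*, *Cxcr3* and 1 promoter of *Patj* also held a match. *Actn1*, *Il7r*, *Gpr183*, *Slfn5*, *Aff3* and *Vipr1* held 0. Among the largest falls, *Gzma* alone held a match. *Nsg2*, a vesicle protein best known from neurons, led the rises among genes whose mean log2 CPM was 3 or higher, with 1.01 and 1.92 CPM in KO SLEC and 70.4 and 79.2 CPM in KO MPEC (5.71 ± 0.65, adjusted p = 9.12e-04).

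The other large rises were of varied function. *Myc*, a driver of growth and ribosome production, had 5.87 and 5.08 CPM in KO SLEC and 99.2 and 92.8 CPM in KO MPEC (4.12 ± 0.52, adjusted p = 0.0019). *Slfn5*, an interferon-inducible gene, had 16.5 and 5.63 CPM against 112 and 121 CPM (3.37 ± 0.43). *Vipr1*, the receptor for vasoactive intestinal peptide, had 7.69 and 3.71 CPM against 54.8 and 52.9 CPM (3.21 ± 0.37). In each the MPEC replicates were close together and far above SLEC, and these calls, like those of *Nsg2*, *Il6ra*, *Gpr183*, *Patj* (3.79), a polarity scaffold, and *Eya2* (3.10), held without any 1 library. *Aff3* (3.27), a transcriptional elongation factor gene, had an adjusted p of 0.058 without MPEC replicate 1 and 0.090 with only the compared groups in the fit. *Actn1* (4.60), an actin crosslinker, *Pecam1* (3.78), the adhesion molecule CD31, *Hook1* (3.20), a motor adaptor, and *F2rl1* (3.12), a protease-activated receptor, lost the call in all 4 omissions. Their adjusted p was then 0.051 to 0.12, 0.067 to 0.18, 0.064 to 0.17 and 0.052 to 0.15. *Pecam1*, also a marker of endothelium, had 6.78 and 3.85 CPM against 69.7 and 79.5 CPM, and an adjusted p of 0.060 with no filter on low counts. The 7 markers of stroma and endothelium, *Pecam1* among them, summed to 4.47 to 7.47 CPM in KO SLEC and 72.1 to 75.7 CPM in KO MPEC (sums over marker lists are scaled to the total count, without the TMM composition factor applied to single genes). Of the 7, 3 and 2 were detected in the KO SLEC libraries and 5 and 1 in the KO MPEC libraries, with *Col3a1* and *Dcn* at 0 in all 4. *Pecam1* itself made up nearly all of the sums in KO MPEC, so the other markers added little to their rise. The part of such cells in the *Pecam1* result was not tested.

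**Figure D2:**
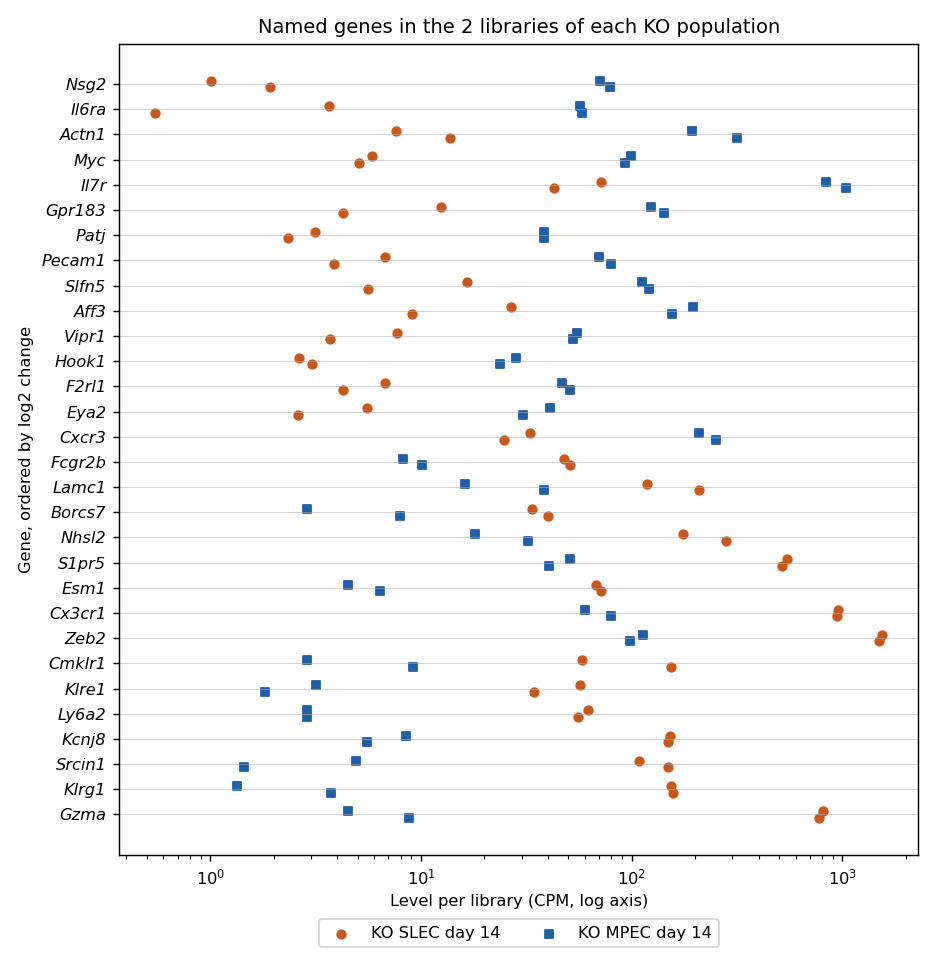
Level in each library (CPM, log x axis) of the 15 largest rises and the 15 largest falls in KO MPEC; circles are the 2 KO SLEC and squares the 2 KO MPEC libraries, offset within a row by replicate. The populations of each gene lie apart, as the rule that chose the genes required, and *Gzma* goes from 806 and 775 CPM in SLEC to 4.52 and 8.72 CPM in MPEC.

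Among the large falls beyond those already given, *Srcin1*, an adaptor that inhibits SRC kinase, had 109 and 148 CPM in KO SLEC and 4.93 and 1.44 CPM in KO MPEC (-5.35 ± 0.77, adjusted p = 0.010). *Kcnj8*, a subunit of an ATP-sensitive potassium channel, had 152 and 148 CPM against 8.52 and 5.56 CPM (-4.41 ± 0.56). *Cmklr1*, the chemerin receptor, had 58.4 and 153 CPM against 2.88 and 9.20 CPM (-4.11 ± 0.60). SLEC levels of *Cmklr1* differed between replicates, yet both were above both MPEC libraries, and its adjusted p was 0.22 with only the compared groups in the fit. *Ly6a2*, annotated as a transcribed unprocessed pseudogene, was at 62.1 and 55.8 CPM against 2.88 and 2.88 CPM (-4.35 ± 0.23). *Nhsl2* was at 175 and 281 CPM against 18.0 and 32.0 CPM (-3.18 ± 0.29). *Borcs7* (-2.76), a part of the complex that moves lysosomes, and *Lamc1* (-2.58), a laminin chain, were lower as well, the latter with an adjusted p of 0.18 when only the compared groups were in the fit. *Fcgr2b* (-2.42), the inhibitory Fc receptor, had 48.0 and 50.7 CPM against 8.21 and 10.2 CPM. Without SLEC replicate 2 or MPEC replicate 2 the adjusted p of *Srcin1* was 0.053 or 0.052, and that of *Fcgr2b* 0.053 or 0.064, with 0.094 without MPEC replicate 1.

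*Notch3*, a receptor of the Notch family, was outside the rule for named genes because its mean level was low, and was singled out after its values were seen. It had 47.0 and 65.4 CPM in KO SLEC and 0 counts in both KO MPEC libraries against 941 counts in SLEC, at least 378-fold lower (adjusted p = 0.0052). In all, 27 of the 357 lower genes had 0 counts in KO MPEC and 6 of the 418 higher genes had 0 counts in KO SLEC. The latter included *Nccrp1*, at least 42.3-fold higher, and *Gpr15*, a gut homing receptor, with 2.77 and 9.78 CPM in MPEC and at least 35.7-fold higher, both again singled out after their values were seen. For such genes only the bound on the fold is given.

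Among 13 tested cytokines and chemokines, 2 were called higher and 1 lower in MPEC. *Tnf* had 1.82 and 1.24 CPM in KO SLEC and 15.9 and 12.8 CPM in KO MPEC (3.20 ± 0.42, adjusted p = 1.58e-04). *Ltb*, which encodes lymphotoxin beta, had 60.3 and 54.0 CPM against 172 and 227 CPM (1.80 ± 0.18). *Ccl4*, an inflammatory chemokine, was lower, with 20.1 and 17.5 CPM against 6.57 and 7.38 CPM (-1.43 ± 0.38, adjusted p = 0.038, and 0.14 to 0.23 without 1 library). *Ifng* (0.31) and *Ccl5* (-0.49), effector cytokine genes of CD8 T cells, did not pass the test. *Ccl5* was the most abundant of these, at 3374 and 3630 CPM in SLEC and 2358 and 2626 CPM in MPEC.

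The inhibitory receptors that differed were mostly higher in MPEC. Of 12 inhibitory receptors and related genes, 4 were called higher (*Tox*, *Btla*, *Ctla4*, *Cd5*) and 1 lower (*Entpd1*), with a median of 0.89. *Tox*, a factor of exhausted and memory cells, had 8.20 and 5.36 CPM in KO SLEC and 33.6 and 30.9 CPM in KO MPEC (2.24 ± 0.38). *Entpd1*, the ectonucleotidase CD39, went the other way, with 49.5 and 85.3 CPM against 9.65 and 18.1 CPM (-2.27 ± 0.31). These 2 calls held without any 1 library. *Btla* had 10.6 and 4.12 CPM against 48.7 and 41.0 CPM (2.58 ± 0.49, adjusted p = 0.067 without SLEC replicate 2 and 0.067 without MPEC replicate 1). *Ctla4* had 2 counts in SLEC and 89 in MPEC, and an adjusted p of 0.067 or 0.068 without one or the other SLEC library. *Cd5* (0.68 ± 0.16) had an adjusted p of up to 0.21 when a library was left out. *Pdcd1*, which encodes PD-1, did not pass (0.77, adjusted p = 0.29).

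Of 10 costimulatory receptors, *Cd27* and *Cd28* were called higher and 0 lower. *Cd27*, a receptor tied to memory formation, had 67.5 and 40.7 CPM in KO SLEC and 206 and 185 CPM in KO MPEC (1.85 ± 0.23, adjusted p = 2.24e-04). *Cd28* had 147 and 103 CPM against 217 and 217 CPM (0.80 ± 0.16), with an adjusted p of 0.15 without SLEC replicate 2 and 0.051 without MPEC replicate 1. In the SLAM family of 9 tested genes, *Slamf6*, a marker of TCF-1-positive T cells, was called higher, with 39.5 and 23.6 CPM against 162 and 136 CPM (2.23 ± 0.28). *Slamf7* (-0.82) and *Cd48* (-0.64) were called lower. Without SLEC replicate 2 or MPEC replicate 1 the adjusted p of *Slamf7* was 0.070 or 0.086, and *Cd48* lost the call in all 4 omissions (0.063 to 0.26).

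In the BCL2 family of survival and death genes, 1 of 14 was called in each direction, and the median was -0.08. *Bcl2* had 96.8 and 123 CPM in KO SLEC and 278 and 246 CPM in KO MPEC (1.25 ± 0.28, adjusted p = 0.025, and 0.089 to 0.16 without 1 library). *Pmaip1*, which encodes the death-promoting NOXA, was lower, with 69.7 and 81.6 CPM against 33.1 and 33.6 CPM (-1.18 ± 0.16, adjusted p = 1.75e-04). *Bcl2l11*, which encodes BIM, did not pass (0.54). Of 16 S100, annexin and galectin genes, 3 were called lower and 1 higher. *Lgals1*, galectin 1, had 408 and 389 CPM against 149 and 197 CPM (-1.21 ± 0.19). *Ahnak*, a giant scaffold protein, was among the most abundant genes of either population, with 9141 and 14590 CPM in SLEC and 4757 and 6424 CPM in MPEC (-1.09 ± 0.25). Its adjusted p was 0.27 without SLEC replicate 2 and 0.17 without MPEC replicate 1.

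**Figure D3:**
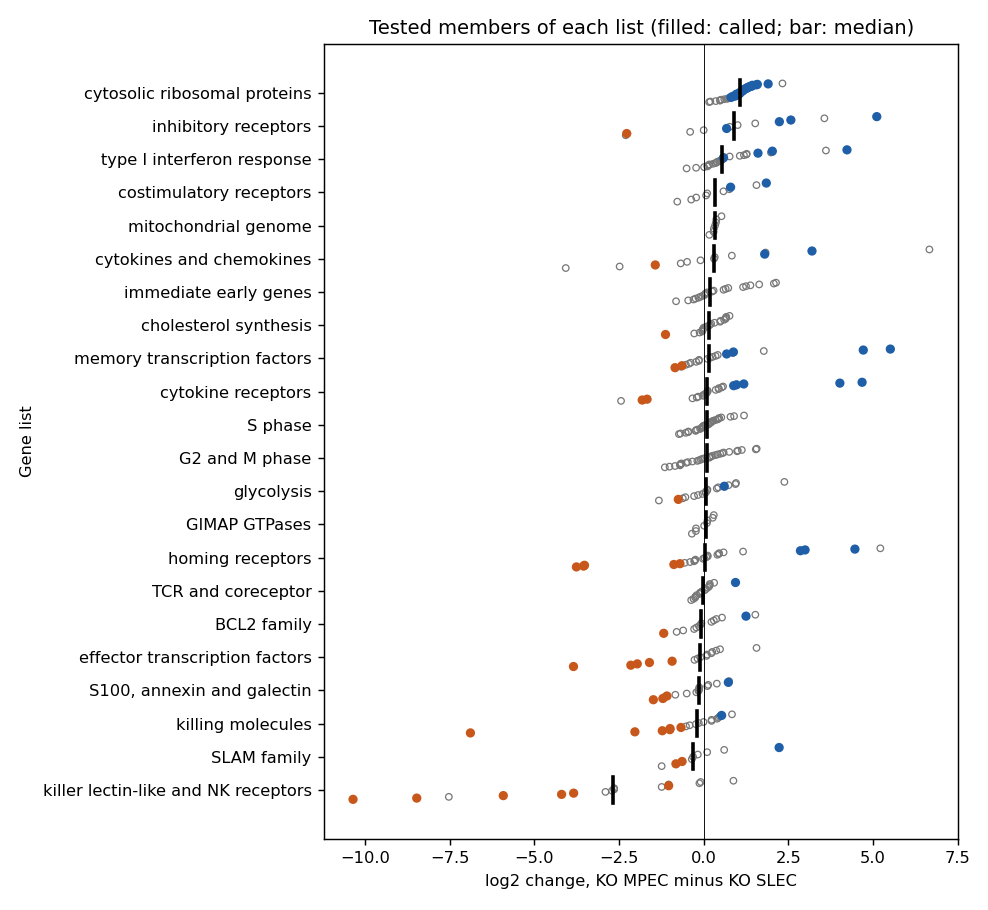
Log2 change, KO MPEC minus KO SLEC (x axis), of the tested members of 22 gene lists (y axis); filled points are called, open points are not, and bars are list medians. The ribosomal protein list lies wholly above 0 with a median of 1.07, and the killer lectin-like receptor list has the lowest median, -2.68; members with 0 counts in a population have a fitted change that depends on the prior count.

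Most cytosolic ribosomal protein genes were higher in MPEC. In a list of 41 such genes, all 41 had a positive change, 27 were called higher, 0 lower, and the median was 1.07, against -0.0025 over all genes. *Rplp1*, an acidic stalk protein of the large subunit, had 627 and 419 CPM in KO SLEC and 1277 and 1215 CPM in KO MPEC (1.25 ± 0.18, adjusted p = 2.76e-04). *Rps20*, of the small subunit, had 64.0 and 49.9 CPM against 161 and 176 CPM (1.56 ± 0.16, adjusted p = 1.09e-05). *Rpl4*, of the large subunit, had 824 and 781 CPM against 1453 and 1895 CPM (1.06 ± 0.18). In another set of 69 tested cytosolic ribosomal protein genes, 35 were called higher and 67 had a positive change. This set left out some tested large-subunit genes, among them *Rpl3*, *Rpl4*, *Rpl7* and *Rpl8*. Of those named, *Rpl4*, *Rpl7* and *Rpl8* were called higher and *Rpl3* was not called. Within the set, the large subunit had 19 of 39 called and the small subunit 16 of 30, with medians of 1.00 and 1.09. Of 77 mitochondrial ribosomal protein genes, 3 were called higher, with a median of 0.23. The 27 calls in the list became 26 without SLEC replicate 1, 11 without SLEC replicate 2, 18 without MPEC replicate 1 and 21 without MPEC replicate 2. Reads of these genes can also map to processed pseudogenes, so the level of a single gene is uncertain.

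Summed over the set of 69 genes, without *Rpl4* and the others left out of it, the level was 4609 and 3540 CPM in KO SLEC. In KO MPEC it was 9345 and 9276 CPM. The sums thus understate the level of all cytosolic ribosomal protein genes. In WT cells the sums were 4863 and 4429 CPM in SLEC and 9903 and 10264 CPM in MPEC. The day 7 SLEC libraries of both genotypes lay between, at 5770 to 8092 CPM. The KO SLEC replicate with the lower sum, replicate 2, was also the library whose omission took away most calls. The share of mitochondrial ribosomal RNA, given above, was also higher in KO MPEC than in KO SLEC, and its part in the result was not tested.

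**Figure D4:**
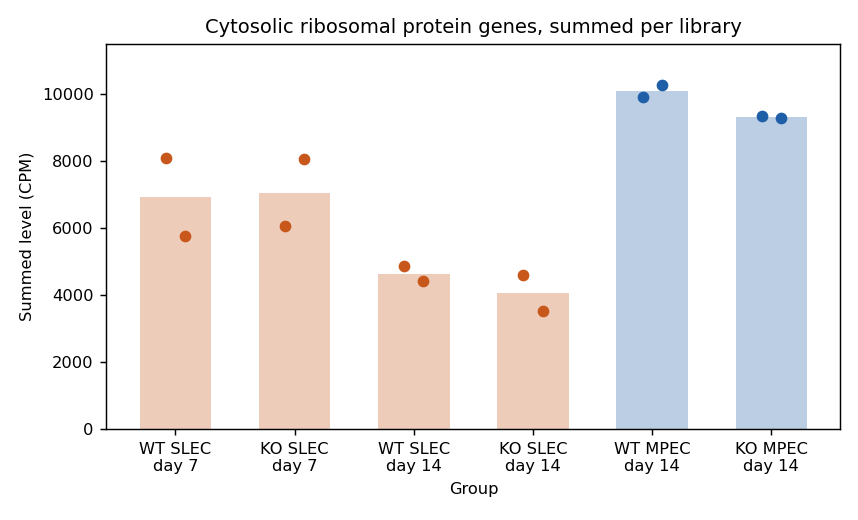
Summed level (CPM, y axis from 0) of 69 cytosolic ribosomal protein genes in each of the 12 libraries (points) by group (x axis). The set leaves out some tested genes, *Rpl4* among them, and bars are the means of the 2 libraries. Both KO MPEC libraries, at 9345 and 9276 CPM, are above both KO SLEC day 14 libraries, at 4609 and 3540 CPM, and the WT groups show the same order.

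Genes of the type I interferon response, which are induced by interferon alpha and beta, had mostly positive changes in MPEC, and the number called varied with the method. Of 29 tested, 27 had a positive change, as did 7112 of all 14460 tested genes. Of the 29, 4 were called higher and 0 lower, against 2.89% and 2.47% of all genes. The median was 0.55, against -0.0025 over all genes. *Oas3*, an antiviral RNA sensor, had 53.1 and 40.0 CPM in KO SLEC and 124 and 159 CPM in KO MPEC (1.60 ± 0.24, adjusted p = 0.0010). *Oasl2* had 1.11 and 0.275 CPM against 16.4 and 11.4 CPM (4.23 ± 0.79), *Rsad2*, which encodes viperin, 4.96 and 1.65 CPM against 13.7 and 13.9 CPM (2.03 ± 0.50), and *Ifi203* 212 and 188 CPM against 283 and 318 CPM (0.59 ± 0.14). *Oas3* alone of these held its call in all 4 omissions. The list's 4 calls became 8 without SLEC replicate 1, 1 without SLEC replicate 2, and 2 without either MPEC library. DESeq2 called 9 higher and 1 lower, edgeR with no filter on low counts 10 higher, and edgeR with only the compared groups 8 higher.

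Cell division and most metabolism lists showed no called pattern. Of 30 G2 and M phase genes and 30 S phase genes, 0 were called in either direction, against 5.36% of all genes tested. The medians were 0.09 and 0.09. Of the 30 G2 and M phase genes, 17 passed a filter of 10 counts in every library of either compared group. Their list median ran from -0.28 to 0.45 with 1 library left out, so the lack of calls says little about division. The proliferation marker *Mki67* had a change of -0.33. Of 22 immediate early genes, which respond within minutes to receptor signals or to cell handling, 0 were called (median 0.18). Of 18 glycolysis genes, *Gpi1* was called higher (0.61) and the glucose transporter *Slc2a3* lower (-0.75), of 20 cholesterol synthesis genes *Dhcr7* was called lower (-1.14), and of 8 GIMAP genes and 7 genes of the mitochondrial genome 0 were called. Of 16 genes of the T cell receptor and its coreceptors, *Cd3d* was called higher, with 165 and 116 CPM against 255 and 276 CPM (0.92 ± 0.21). *Gpi1*, *Slc2a3*, *Dhcr7* and *Cd3d* each lost the call in 2 or 3 of the 4 omissions, with adjusted p up to 0.31, 0.33, 0.093 and 0.23.

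Some called genes lay beside one another elsewhere in the genome. Of 773 called genes with a position, 107 (13.8%) had an adjacent tested gene called in the same direction, and there were 7 runs of 3 or more. An adjacent gene called higher was found for 10.6% of the higher genes and 5.69% of all 14446 tested genes with a position, and one called lower for 17.6% of the lower genes and 4.78% of all, a description with no test. On chromosome 11, *Jup*, *P3h4* and *Fkbp10* (100368958 to 100424824) were lower. *Jup*, which encodes plakoglobin, had 17.5 and 16.4 CPM in KO SLEC and 0.719 and 0.384 CPM in KO MPEC, and *P3h4* and *Fkbp10*, both of collagen processing, had 0 counts in KO MPEC (at least 42.6-fold and 36.5-fold lower). On chromosome 9, *S1pr5* and *Atg4d*, an autophagy protease gene, were lower in a run from 21242912 to 21277772. *Atg4d* had 86.6 and 93.3 CPM against 44.0 and 43.7 CPM (-1.04 ± 0.18). On chromosome 6, *Tapbpl*, an antigen-presentation editor, and *Cd27* were higher in a run from 125223933 to 125287286, with *Tapbpl* at 45.1 and 30.5 CPM against 61.1 and 92.8 CPM. On chromosome 5, the interferon-inducible GTPases *Gbp9* (0.89), *Gbp4* (0.57) and *Gbp10* were higher (105077630 to 105239533). Genes other than *S1pr5* and *Cd27* in these runs were singled out after their values were seen, and overlap of gene bodies and strand of counting were not taken into account.

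The same contrast in WT cells, which compares other libraries than the KO contrast, called 788 genes (5.45%), 371 higher (2.57%) and 417 lower (2.88%) in MPEC. Both contrasts came from 1 fit on all 12 libraries with a shared estimate of the spread, so the 2 sets of calls are not independent. Both libraries of 1 WT population lay above both of the other in 57.3% of all genes. Of the 418 genes higher in KO MPEC, 410 had a positive change in WT and 241 were called in the same direction, which is 57.7% of the KO list and 65.0% of the WT list. Of the 357 lower in KO MPEC, 354 had a negative change in WT and 238 were called, 66.7% of the KO list and 57.1% of the WT list. Over all tested genes, 66.6% had a change of the same sign in KO and WT. None of the 775 (0) was called in the opposite direction. Median changes of the 2 sets were 1.25 and -1.18 in KO and 0.98 and -0.99 in WT, where the KO medians are those of genes chosen for their KO change. *Klrg1* changed by -6.04 in WT and -5.92 in KO, *Gzma* by -6.47 and -6.89, and *Cxcr3* by 3.16 and 3.0. The WT SLEC day 14 libraries held far more B cell RNA, with a summed marker level of 911 to 3719 CPM against 145 to 462 CPM in WT MPEC, and its part in the WT contrast was not tested.

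The test of the difference between the contrasts, KO minus WT, called 0 of 14460 genes in edgeR and 0 in DESeq2. Without the filter on low counts it called 30 genes, and without WT SLEC replicate 1 it called 1. At an unadjusted p under 0.05 it found 618 genes (4.27%). The 5 genes with the smallest unadjusted p (2.74e-04 to 7.19e-04) were *Ptprv*, *Map7*, *Tnf*, *Pou2af1* and *Sntb1*, each with an adjusted p of 1.0. *Tnf* had 5.59 and 7.47 CPM in WT SLEC and 14.1 and 9.89 CPM in WT MPEC, against 1.82 and 1.24 CPM and 15.9 and 12.8 CPM in KO. *Map7*, a microtubule-binding protein gene, had 4.34 and 6.71 CPM in WT SLEC and 11.9 and 8.29 CPM in WT MPEC, against 0.607 and 0.962 CPM and 11.5 and 9.87 CPM in KO. In both genes the MPEC levels of the genotypes overlapped or were close and the SLEC levels were lower in KO, but neither difference of contrasts passed. *Pou2af1*, a coactivator of B cells, had 8.69 and 34.0 CPM in WT SLEC, the group with the highest B cell marker sum, and 0.275 to 4.76 CPM in the other day 14 libraries. *Il7r* changed by 5.02 ± 0.26 in WT and 4.02 ± 0.25 in KO (unadjusted p of the difference 0.0074, adjusted p = 1.0). *Sntb1*, a syntrophin gene, had 17.7 and 20.1 CPM in WT SLEC and 60.3 and 67.8 CPM in WT MPEC, against 41.8 and 44.1 CPM and 61.0 and 70.7 CPM in KO. *Ptprv*, of the receptor phosphatase family, had 32.5 and 45.6 CPM in WT SLEC and 15.6 and 14.4 CPM in WT MPEC, against 4.45 and 2.89 CPM and 5.44 and 7.29 CPM in KO.

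**Figure D5:**
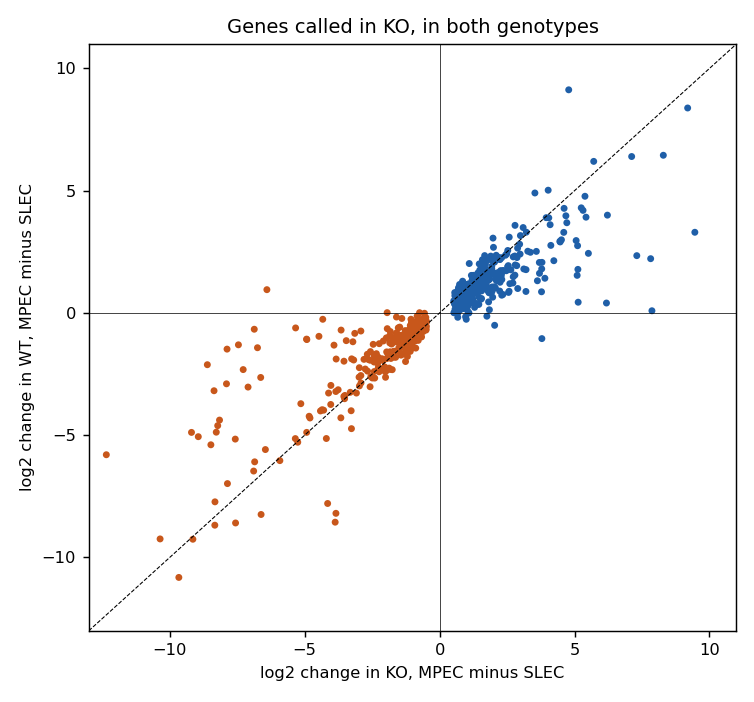
Log2 change, MPEC minus SLEC on day 14, in KO (x axis) and WT (y axis) for the 775 genes called in KO; the dashed line marks equal change. Of the 418 genes higher in KO MPEC, 410 lie above 0 in WT, and of the 357 lower genes 354 lie below 0; genes with 0 counts in a population have fitted changes that depend on the prior count.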

How the data were processed

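The authors deposited 1 table of raw read counts per gene for 12 libraries. Per the labels, RNA was extracted from sorted cells with a column kit and made into SMART-Seq stranded libraries; the submitters' processing notes name STAR 2.6.1a and the build GRCm38. How reads were assigned to genes, with which annotation and strand setting, is not stated in these sources. Of the identifiers, 99.52% were found in GENCODE M21 (GRCm38), used for positions, and 27 symbols turned into dates were restored through the identifier.

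The count analysis used edgeR 4.0.16 (R 4.3.3). Genes kept by filterByExpr over 6 groups (14460) were fitted with TMM factors, 1 coefficient per group and all 12 libraries (6 residual degrees of freedom), and tested two-sided with glmQLFTest, adjusting by Benjamini-Hochberg over all genes; a call is an adjusted p under 0.05. SE is the log2 change divided by the square root of F. CPM are TMM-scaled, except marker sums, which use total counts. Tested on simulated data for KO MPEC against KO SLEC (13815 genes), the fit recovered 16%, 52%, 96% and 100% of 1.5-, 2-, 4- and 8-fold changes (50 genes each), with 4 false calls. Bounds on folds use a floor of 3 counts over the group and cover counting error only.

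Genes were named by a rule: the 15 largest rises and falls among called genes with mean log2 CPM (prior count 2) of at least 3 and non-overlapping groups, called members of 34 lists with up to 4 others each, the 5 smallest p in the difference, and 14 genes followed throughout. A gene that the rule names is not reported here. Members of the comparison and lists were chosen with earlier results of these data known. DESeq2 1.42.0, upper quartile factors, other filters, other libraries in the fit and a replicate block were alternatives. Promoters came from a RefSeq table (GRCm38.p6).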

Additional observations from a re-analysis of the deposited data

How the results depend on the processing

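The 775 calls of KO MPEC against KO SLEC became 1067 in DESeq2, 784 with upper quartile factors, 1077 with no filter, 859 with a stricter filter, 993 with only the 4 compared libraries, 733 with a replicate block, and 670 with both WT SLEC day 14 libraries out of the fit, an alternative chosen after seeing the data because of their B cell RNA. Leaving out 1 library gave 281 to 552. Of 116 named called genes, 49 kept the call in every alternative, 67 lost it in at least 1, and 0 changed direction. For WT the 788 calls became 1944 with only the compared groups, 205 to 392 without 1 library, and 746 with the block (708 with the WT MPEC numbers crossed, chosen after seeing the data). For the difference of contrasts, 0 calls became 30 with no filter and 1 without WT SLEC replicate 1, with 0 to 1 over all omissions. Replicate numbers were not used as pairs in the main fit. Deviations of same-numbered KO SLEC and MPEC libraries on day 14 correlated at 0.077, within the range of -0.16 to 0.21 over all pairs of groups. Such a correlation cannot tell whether same-numbered libraries came from the same animals. The cause of the shifts in the number of calls was not tested. With 2 libraries per group, the self-test recovered 52% of 2-fold changes. It changed only genes above a level floor and drew the spread from a trend over level alone. Its rates may therefore not hold for low or variable genes. Among the 775 calls, 275 higher and 215 lower genes had a change of at least 1 on the log2 scale, and the other calls were smaller.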

Other observations

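Day 7 levels of KO SLEC were compared with the day 14 populations as values only. The called genes were chosen partly for their KO MPEC levels, which tilts the counts of called genes below. The counts over all tested genes are therefore not a matched background. Of the 418 genes higher in KO MPEC, both day 7 KO SLEC libraries were below both KO MPEC libraries in 330. Of the 357 lower genes, both were above in 298. Over all 14460 tested genes, both were below in 4040 and above in 4211. *Myb* was an exception, at 29.1 and 27.96 CPM in day 7 KO SLEC, within the range of KO MPEC and above the 0.607 and 1.92 CPM of day 14 KO SLEC. *Srcin1* and *Kcnj8* had 21.0 and 20.8 CPM and 25.1 and 16.0 CPM in day 7 KO SLEC, above KO MPEC but well below the 109 to 152 CPM of both genes in day 14 KO SLEC. *Notch3* had 45.5 and 46.3 CPM in day 7 KO SLEC, close to its day 14 SLEC level, and in WT 46.9 and 38.8 CPM in day 14 SLEC and 0.604 and 0.942 CPM in day 14 MPEC.

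KO SLEC replicate 1 was above replicate 2 in 293 of the 418 genes higher in MPEC (70.1%) and in 110 of the 357 lower genes (30.8%), against 50.7% of all genes tested. Replicate 1 thus lay nearer to MPEC than replicate 2 did in most called genes of both directions. *Tcf7*, at 446 and 183 CPM in KO SLEC replicates 1 and 2, and *Eomes*, at 133 and 33.0 CPM, showed this order without being called.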
